A study of Mus musculus with 8 samples.

Results

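The insulin granule exocytosis machinery was followed here through 9 genes whose proteins bring insulin granules to the plasma membrane of the beta cell and fuse them with it. The genes were *Stx1a*, *Snap25*, *Vamp2*, *Syt4*, *Syt7*, *Syt13*, *Rab3a*, *Rab27a* and *Unc13a*, chosen by name and found on the array as every probe whose transcript accession belongs to one of these symbols. They were 9 of the 21154 genes with a named probe, and all 9 were among the 16955 genes bright enough to be compared. *Syt7* had a pair of probes and the other genes 1 each, which makes 10 probes.

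RNA of isolated islets was measured on 1-colour microarrays in male C57BL/6 mice on a standard diet. The 4 control mice, called β-CB1R+/+, were *Cnr1* flox/flox:MIP-Cre/ERT- littermates. The 3 knockout mice, called β-CB1R-/-, were *Cnr1* flox/flox:MIP-Cre/ERT+, which lose the cannabinoid 1 receptor (CB1R) in beta cells. Both groups carried the floxed alleles and received tamoxifen. In the knockouts the mouse insulin promoter drives the Cre recombinase, so the deletion is meant for beta cells alone, and every knockout also carries the Cre transgene that the controls lack. The samples are labelled CB1 KO or CB1 WT and the text with them describes a global knockout, whereas the title and design of the series name the beta cell-specific one. The age of the array mice is not given in the sources used here. Replicate 2 of the β-CB1R-/- mice was run on a pair of arrays that were averaged, so 8 arrays stand for 7 mice. All arrays lay on 1 slide with the β-CB1R+/+ mice on one side and the β-CB1R-/- mice on the other, so genotype and place on the slide cannot be told apart.

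An insulin granule docks at the plasma membrane, is primed, and fuses when calcium enters the cell. Fusion is driven by a SNARE complex in which VAMP2 on the granule zips together with syntaxin 1A and SNAP-25 on the plasma membrane. Rab GTPases tether and dock the granule, Munc13-1 opens syntaxin for priming, and synaptotagmins couple fusion to calcium. The same proteins release neurotransmitter at synapses, and beta cells share them with neurons and other endocrine cells.

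Each level below is the log2 intensity of a probe relative to the 75th percentile of its array, given for one mouse. Such levels compare mice for one probe, and they do not rank one gene against another. The islet label was checked on marker genes: all 10 beta cell markers, all 6 alpha cell markers and all 5 delta or PP cell markers were well above background on all 8 arrays. So were all 10 of the acinar markers that could be compared, out of 12 listed, so exocrine transcripts were detected in every sample. Islets are mixed tissue, and fewer cells of a type and less RNA per cell cannot be told apart in these values. *Cnr1*, the targeted gene, had a level of −0.60 ± 0.46 (SD, n = 4 mice) in β-CB1R+/+ and −2.57 ± 0.49 (SD, n = 3 mice) in β-CB1R-/-, with no overlap between the mice. The probe was well above background on 3 of the 4 β-CB1R-/- arrays. Its log2 difference was −1.97, with an adjusted p of 0.193 by limma over all probes (exact permutation test, two-sided p = 0.0286, the smallest p these 7 mice allow), and it was −1.08 after a normexp background correction.

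RefSeq promoter windows on GRCm38.p6 were used for 4 of the 9 genes, and 3 of them are shown so that the regulatory sequence can be read beside the values. Each window holds 250 bases before the transcript start and 50 after it, 5′ to 3′ on the strand of the gene. Capitals mark TGACG on either strand (CGTCA on the other), the short form of the cyclic AMP response element bound by CREB, and the arms of the RE1 element, TTCAGCACC and GACAGCGCC on either strand, bound by the repressor REST. Beta cells are known for lacking REST, which silences many neuronal genes in other tissues.
*Stx1a*, chr5:135023232-135023531, plus strand: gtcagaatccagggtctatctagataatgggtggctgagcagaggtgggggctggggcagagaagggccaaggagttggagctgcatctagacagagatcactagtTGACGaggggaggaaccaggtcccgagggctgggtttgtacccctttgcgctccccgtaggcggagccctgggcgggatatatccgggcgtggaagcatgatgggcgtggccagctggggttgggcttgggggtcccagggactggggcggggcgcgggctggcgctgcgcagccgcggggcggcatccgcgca
*Rab3a*, chr8:70754453-70754752, plus strand: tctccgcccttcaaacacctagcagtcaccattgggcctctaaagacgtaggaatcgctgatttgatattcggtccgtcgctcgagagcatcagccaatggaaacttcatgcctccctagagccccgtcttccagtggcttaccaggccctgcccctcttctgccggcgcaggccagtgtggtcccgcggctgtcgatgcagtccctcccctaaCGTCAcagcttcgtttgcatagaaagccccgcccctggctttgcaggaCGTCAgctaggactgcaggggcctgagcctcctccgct
*Unc13a*, chr8:71671708-71672007, minus strand: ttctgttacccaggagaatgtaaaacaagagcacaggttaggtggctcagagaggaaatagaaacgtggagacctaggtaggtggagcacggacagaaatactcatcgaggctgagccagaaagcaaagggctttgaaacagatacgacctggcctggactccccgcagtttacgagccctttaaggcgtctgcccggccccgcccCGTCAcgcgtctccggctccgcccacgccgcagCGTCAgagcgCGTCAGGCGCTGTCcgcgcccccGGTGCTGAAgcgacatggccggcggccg

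The letters TGACG occurred once in the *Stx1a* window, from base 107 to base 111. The *Rab3a* window above held them at bases 215 to 219 and 263 to 267, and a second *Rab3a* window did not hold them. In the *Unc13a* window they began at bases 207, 240 and 250. *Rab27a*, the remaining gene whose windows were used, held them in 1 of its windows, at bases 229 to 233. These letters are common, since 20.8% of the 32851 promoter windows of all genes hold them. Both RE1 arms lay in the *Unc13a* window, at bases 255 to 263 and 273 to 281 with 9 bases between them, and 6 of the 32851 windows hold both. The first of these arms overlaps no TGACG match but touches one, so the capitals run on. The match is a description of the sequence. No window was used for *Snap25*, *Vamp2*, *Syt4*, *Syt7* and *Syt13*, which does not mean that none exists.

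None of the 9 genes differed between genotypes past the threshold of an adjusted p of 0.05 in limma, and none had an unadjusted p under 0.05. Over all probes, 43 of 39160 passed the adjusted threshold, which is 0.11%, and 3.9% of all genes had an unadjusted p under 0.05 by their brightest probe. The mice of the genotypes overlapped for all 9 genes, against 4.83% of all genes without overlap. Of the 9 genes, 3 were higher and 6 lower in β-CB1R-/- by their mean, and 55.7% of all genes were lower. The median log2 difference over the 9 genes was −0.044, beside −0.039 over all genes.

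**Figure D1:**
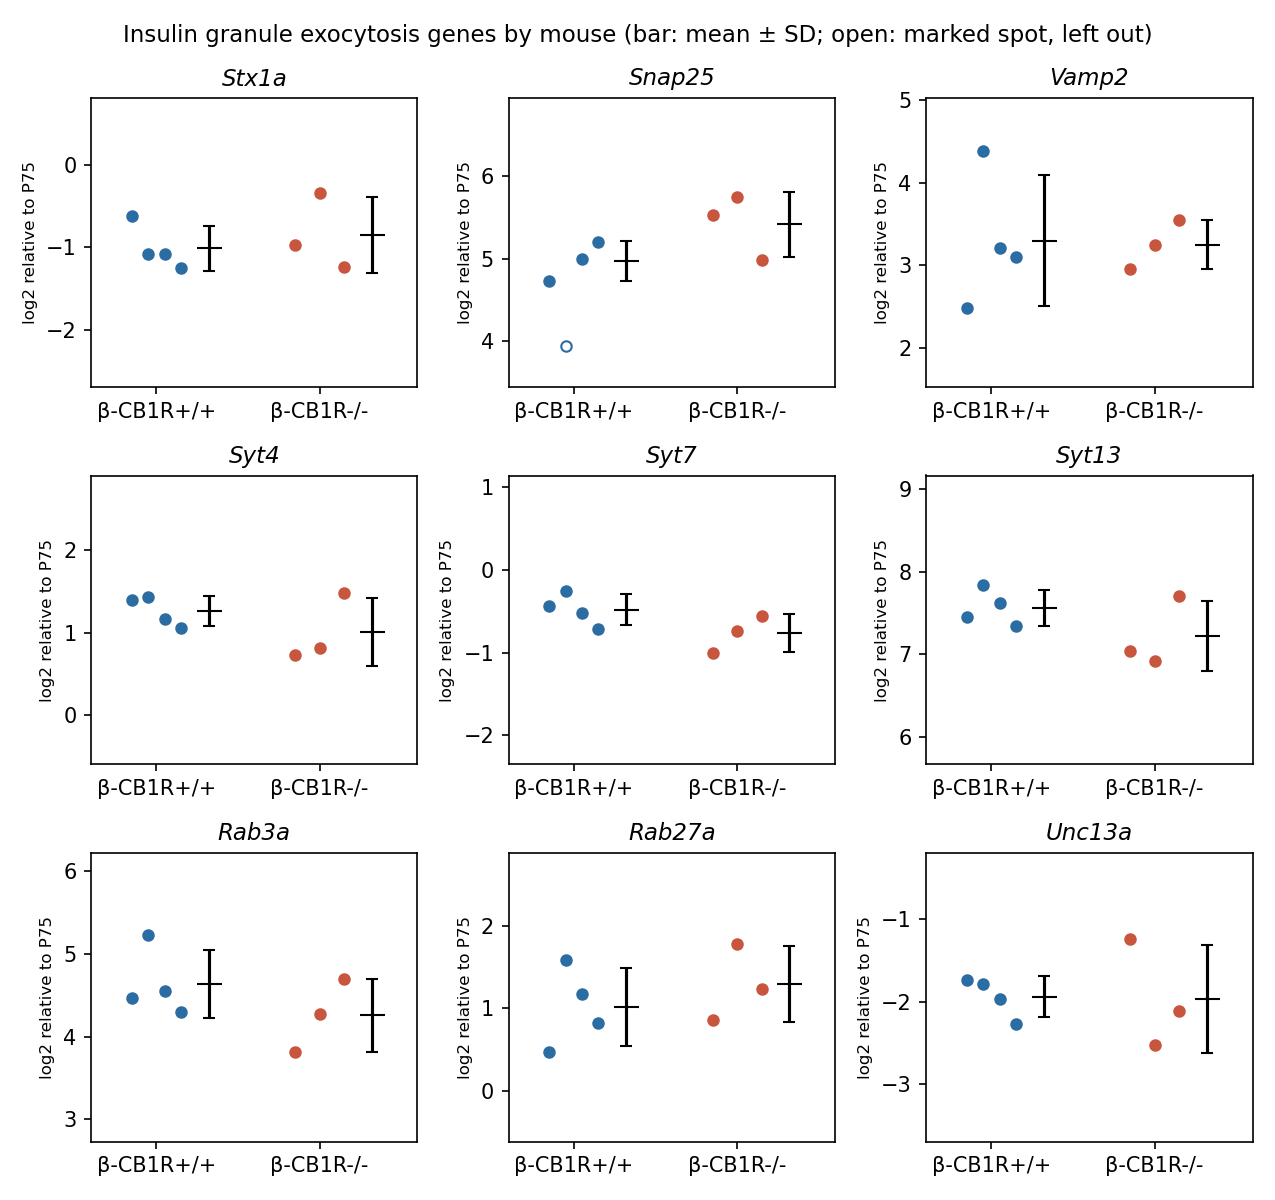
Log2 level relative to the 75th percentile of the array (P75) for each of the 9 genes, with a point per mouse and the mean ± SD beside each genotype; every panel spans the same number of log2 units. The genotypes overlap in every panel, the widest spread is that of Vamp2 in β-CB1R+/+ mice (2.48 to 4.38), and the open point is the Snap25 spot of β-CB1R+/+ replicate 2 that was left out (3.94).

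Both plasma membrane SNAREs had higher means in β-CB1R-/- islets, and neither passed the test. *Snap25*, which supplies a pair of the helices of the SNARE complex, had levels of 4.73, 5.0 and 5.20 in β-CB1R+/+ replicates 1, 3 and 4. In β-CB1R-/- replicates 1 to 3 the levels were 5.54, 5.75 and 4.98. The first and second knockout mice were above every control used, and the third lay among the controls. The log2 difference was 0.45 (standard error 0.27, 95% interval −0.20 to 1.1, adjusted p = 0.999 by limma), or 1.36-fold with an interval of 0.868 to 2.14. Without β-CB1R-/- replicate 2 the log2 difference was 0.28. On the 6 mice the exact two-sided permutation p was 0.300, where the smallest possible is 0.100.

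The spot of *Snap25* in β-CB1R+/+ replicate 2 was marked as non-uniform by the scanner software and was left out of that fit. Its processed intensity was 4439 against a median pixel intensity of 2168, and it would have given a level of 3.94, below every other mouse. With marked spots kept, an alternative chosen after seeing the data, the log2 difference of *Snap25* became 0.71, over 1.5 times the value without it, and it did not pass the threshold. *Snap25* had the largest difference in size among the 9 genes under both choices.

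*Stx1a* encodes syntaxin 1A, the membrane-anchored partner of SNAP-25. Its levels were −0.62, −1.08, −1.08 and −1.25 in β-CB1R+/+ mice and −0.97, −0.34 and −1.24 in β-CB1R-/- mice. Replicate 2 of the knockouts was the highest of all mice and replicate 3 lay close to the lowest, so the knockouts spanned nearly the whole range of the mice. Between genotypes the log2 difference was 0.16 (standard error 0.27, 95% interval −0.47 to 0.79, adjusted p = 0.999 by limma). Without β-CB1R-/- replicate 2 it turned to −0.10, so its direction rested on that mouse. It was 0.29 without β-CB1R+/+ replicate 1, 0.075 without β-CB1R+/+ replicate 4, 0.35 without β-CB1R-/- replicate 3 and 0.045 after a normexp background correction.

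*Vamp2*, the SNARE of the granule membrane, had the widest spread between mice. Its levels were 2.48, 4.38, 3.20 and 3.10 in β-CB1R+/+ mice and 2.95, 3.25 and 3.54 in β-CB1R-/- mice. The lowest and the highest of all mice were both controls, and the 3 knockouts lay between them. *Vamp2* had a log2 difference of −0.044 (standard error 0.42, 95% interval −1.02 to 0.93, adjusted p = 0.999 by limma; exact permutation test, p = 0.914). The interval reached from 0.493-fold to 1.91-fold, the widest of the 9 genes. Within genotypes the SD of *Vamp2* was 0.64, higher than that of 81.5% of the probes compared. Its sign was not stable: the difference was 0.36 after a normexp background correction, 0.32 without β-CB1R+/+ replicate 2 and 0.10 without β-CB1R-/- replicate 1, and it was −0.31 without β-CB1R+/+ replicate 1.

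**Figure D2:**
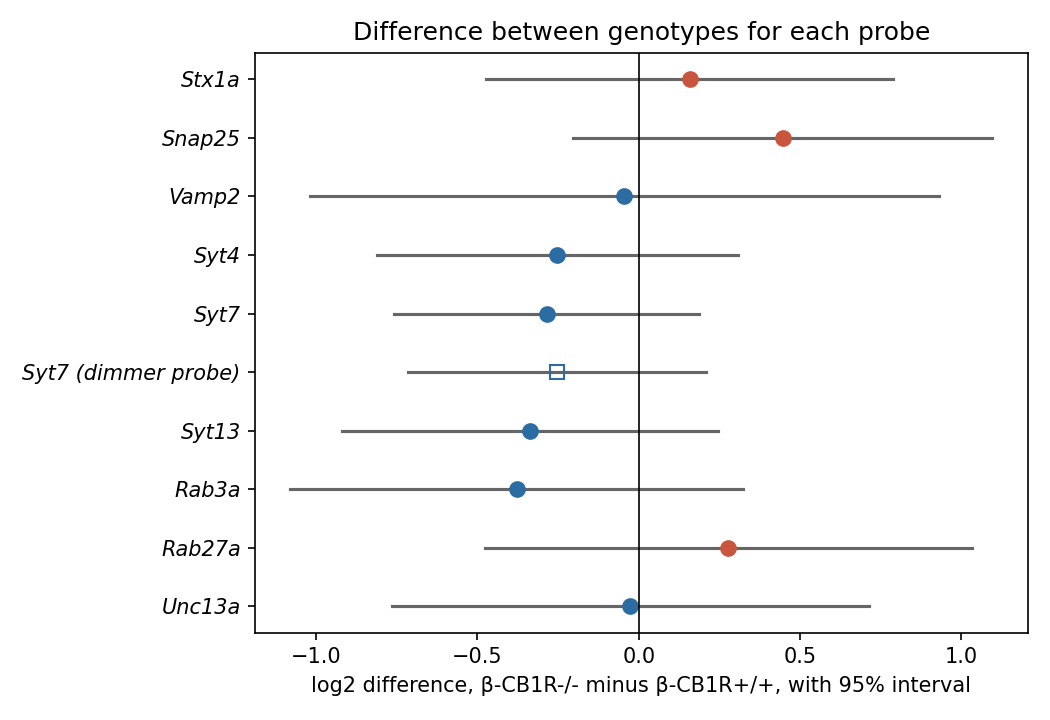
Log2 difference in mean level, β-CB1R-/- minus β-CB1R+/+, with its 95% interval from limma, for the 10 probes of the 9 genes; filled points are the brightest probe of each gene and the open square is the dimmer Syt7 probe. Every interval includes 0, from Rab3a at −0.38 to Snap25 at 0.45.

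All 3 synaptotagmins had lower means in β-CB1R-/- islets, and none of them passed the test. *Syt7* is a high-affinity calcium sensor of granule fusion in beta cells. Its brighter probe had levels of −0.44, −0.26, −0.53 and −0.71 in β-CB1R+/+ mice and −1.01, −0.74 and −0.55 in β-CB1R-/- mice. All 3 knockouts were below the control mean, and the third knockout lay above the lowest control. Its log2 difference was −0.29 (standard error 0.21, 95% interval −0.76 to 0.19, adjusted p = 0.999 by limma) and −0.16 without β-CB1R-/- replicate 1.

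The dimmer *Syt7* probe had levels of −1.32, −1.70, −1.29 and −1.21 in β-CB1R+/+ and −1.55, −1.78 and −1.56 in β-CB1R-/-. Here β-CB1R+/+ replicate 2 was the control that lay among the knockouts, whereas on the brighter probe it was the highest of all mice. This probe gave a log2 difference of −0.25 (standard error 0.20, adjusted p = 0.999 by limma), close to that of the brighter probe. Both probes gave an exact permutation p of 0.114, the lowest among the 10 probes, without adjustment for their number.

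*Syt13* encodes an atypical synaptotagmin that lacks the residues for binding calcium and is known as a gene of endocrine cells. Its levels were 7.45, 7.84, 7.62 and 7.34 in β-CB1R+/+ mice and 7.04, 6.92 and 7.71 in β-CB1R-/- mice. The first and second knockouts lay below every control and the third above all controls but one. *Syt13* differed by −0.34 on the log2 scale (standard error 0.25, 95% interval −0.92 to 0.24, adjusted p = 0.999 by limma), and it was −0.19 without β-CB1R-/- replicate 2 and −0.58 without replicate 3.

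*Syt4*, a synaptotagmin with weak calcium binding that has been linked to the maturation of beta cell secretion, also had its lowest levels in knockouts 1 and 2. Its levels were 1.39, 1.44, 1.17 and 1.05 in β-CB1R+/+ and 0.73, 0.81 and 1.48 in β-CB1R-/-. Both of these knockouts were below every control and knockout 3 was the highest mouse. *Syt4* had a log2 difference of −0.25 (standard error 0.24, 95% interval −0.81 to 0.31, adjusted p = 0.999 by limma). Without β-CB1R-/- replicates 1, 2 or 3 in turn it was −0.11, −0.16 and −0.49. The repeat arrays of knockout 2 gave 0.62 and 1.01, a gap of 0.39 that was the largest of the 9 genes and exceeded this difference. *Syt7* and *Syt13* were the genes, of the 8 measured in all mice, whose difference exceeded their own SD within genotypes.

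The Rab GTPases had differences of opposite sign, and neither passed the test. *Rab3a*, which tethers granules in a step coupled to calcium, had levels of 4.47, 5.23, 4.55 and 4.29 in β-CB1R+/+ mice and 3.81, 4.27 and 4.69 in β-CB1R-/- mice. β-CB1R+/+ replicate 2 stood above all other mice, and knockouts 1 and 2 were the lowest. The log2 difference was −0.38 (standard error 0.30, 95% interval −1.08 to 0.32, adjusted p = 0.999 by limma), and the interval allowed values from 0.473-fold to 1.25-fold. It was the lowest of the 9 genes with all mice, but −0.15 without β-CB1R-/- replicate 1, −0.18 without β-CB1R+/+ replicate 2 and −0.60 without β-CB1R-/- replicate 3.

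*Rab27a*, which docks granules through its effectors, had levels of 0.47, 1.58, 1.17 and 0.83 in β-CB1R+/+ and 0.86, 1.78 and 1.23 in β-CB1R-/-. The knockouts lay within or just above the range of the controls, with replicate 2 the highest mouse. A log2 difference of 0.28 was found (standard error 0.33, 95% interval −0.48 to 1.03, adjusted p = 0.999 by limma). It fell to 0.034 without β-CB1R-/- replicate 2 and 0.098 without β-CB1R+/+ replicate 1, and it was 0.49 without β-CB1R-/- replicate 1 and 0.47 without β-CB1R+/+ replicate 2.

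*Unc13a*, the gene of the priming factor Munc13-1 whose promoter is shown above, was the dimmest of the probes, with a signal at least 3.63 times the local background on every array. Its levels were −1.73, −1.78, −1.96 and −2.27 in β-CB1R+/+ and −1.24, −2.53 and −2.11 in β-CB1R-/-. The highest and the lowest of all mice were both knockouts. The log2 difference was −0.026 (standard error 0.32, 95% interval −0.77 to 0.71, adjusted p = 0.999 by limma; exact permutation test, p = 0.943), and it changed sign in 6 of 18 alternatives, from −0.39 without β-CB1R-/- replicate 1 to 0.26 without replicate 2.

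The mice differed among themselves about as much as for other genes. The median SD within genotypes was 0.39 over the genes measured in all mice and 0.39 over all probes compared, while the repeat arrays of one mouse differed by a median of 0.13 for the 9 genes and 0.14 for all probes. The mice were also compared by the median over the 9 genes. Relative to the control mean, the median of the 9 genes was −0.11, 0.25, −0.042 and −0.22 in β-CB1R+/+ replicates 1 to 4 and −0.34, −0.26 and 0.059 in β-CB1R-/- replicates 1 to 3. β-CB1R+/+ replicate 2 was thus the highest mouse, with 7 of 8 genes above the control mean, and β-CB1R-/- replicate 3 came next with 6 of 9. Single genes departed from this order: in β-CB1R-/- replicate 3 *Stx1a* was at −0.24 and *Unc13a* at −0.18, and the *Snap25* spot left out in β-CB1R+/+ replicate 2 was the lowest of its gene.

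The acinar list set the same mice apart. On the same scale the median of the 10 acinar markers was −0.58 in β-CB1R+/+ replicate 2 and −0.48 in β-CB1R-/- replicate 3, the lowest values, and between 0.098 and 0.49 in the other 5 mice. The median of the 10 beta cell markers was 0.34 in β-CB1R+/+ replicate 2 and −0.082, 0.049 and −0.21 in replicates 1, 3 and 4 of that genotype. In the knockouts it was −0.39, −0.49 and −0.037, so replicate 3 lay within the range of the controls. The median of the 6 alpha cell markers was 0.24, 0.041, 0.12 and −0.30 in β-CB1R+/+ replicates 1 to 4, and −0.59, −1.12 and −0.30 in the knockouts. Their summed linear levels were 967 to 1292 in β-CB1R+/+ and 771 to 930.3 in β-CB1R-/- mice, without overlap, and their median log2 difference was −0.67 against −0.17 for the beta cell markers. *Gcg*, which weighs most in that sum, overlapped between genotypes by itself, and of the 6 markers only *Ttr* did not. Summed linear levels of the acinar list ranged from 10222 to 17497 in β-CB1R+/+ and from 9782 to 18635 in β-CB1R-/- mice, and those of the beta cell list from 3978 to 5240 and from 3294 to 4719. Between genotypes, 9 of 10 beta cell markers and 5 of 6 alpha cell markers were lower in β-CB1R-/- by their mean, 9 of 10 acinar markers were higher, and none of these passed the threshold in limma. Of the nerve or Schwann cell list, whose cells use the same fusion proteins, 5 of 7 markers could be compared and 3 were well above background on all arrays. Its summed level was 44.8 to 74.3 in β-CB1R+/+ and 34.5 to 42.7 in β-CB1R-/- mice, with 3 markers higher and 2 lower by their mean, and *Sox10*, a transcription factor that defines Schwann cells, stood well above background on 6 arrays of 8. All 5 stellate cell or fibroblast markers and all 6 macrophage or leucocyte markers had higher means in β-CB1R-/- islets, as did 3 of 5 endothelial markers and 1 of 5 delta or PP cell markers, and none passed the threshold. The part of these lists in the differences of the 9 genes was not tested.

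**Figure D3:**
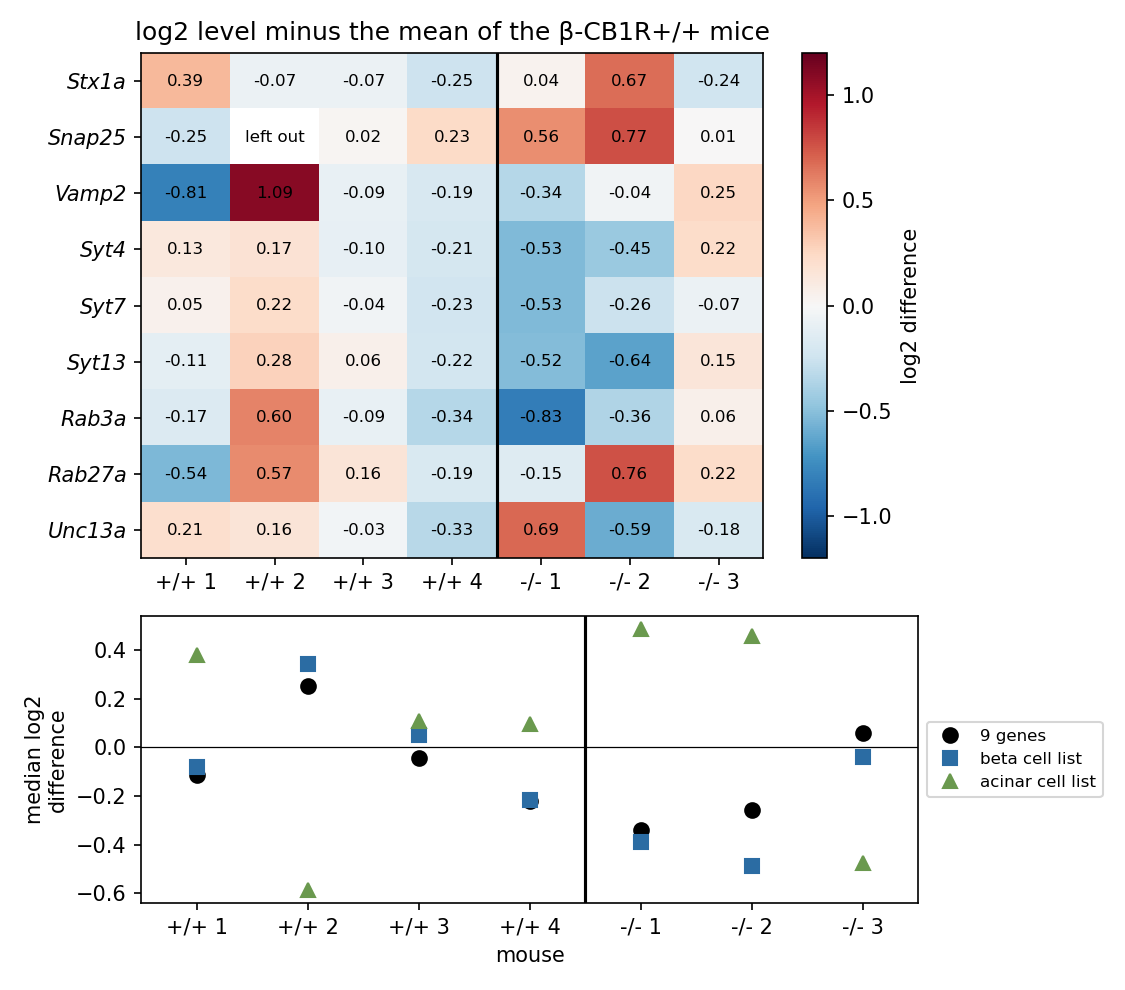
Top: log2 level of each gene in each mouse minus the mean of the β-CB1R+/+ mice, with β-CB1R+/+ mice left and β-CB1R-/- mice right of the line. Bottom: the median of that difference in each mouse over the 9 genes (circles), 10 beta cell markers (squares) and 10 acinar markers (triangles); the circles and squares are highest and the triangles lowest in β-CB1R+/+ replicate 2, and in β-CB1R-/- replicate 3 the triangle is again low (−0.48).

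The immediate-early genes separated the mice along another line, and all 7 had lower means in β-CB1R-/- islets without passing the threshold. *Fos*, an immediate-early gene, was high in β-CB1R+/+ replicates 3 and 4 (6.31 and 5.34) and in β-CB1R-/- replicate 2 (5.84) and at most 0.75 elsewhere. In that knockout *Stx1a*, *Rab27a* and *Snap25* had their highest levels of all mice, whereas *Syt13* (6.92) and *Unc13a* (−2.53) had their lowest. Relative to the control mean, in β-CB1R+/+ replicates 3 and 4 *Stx1a* was at −0.069 and −0.25, *Rab27a* at 0.16 and −0.19, and *Snap25* at 0.020 and 0.23. In the same mice *Syt13* was at 0.056 and −0.22 and *Unc13a* at −0.029 and −0.33. The part of this list in the differences of the 9 genes was not tested.

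*Vamp2* had the largest SD over the mice (0.59), so the genes most like it were sought among the rest of the exocytosis machinery by the root mean square difference of their centred log2 levels over the 7 mice, with the brightest probe of each gene. Among the nearest were *Pclo*, the active zone scaffold piccolo, at 0.27 and *Cplx2*, a complexin that clamps the SNARE complex, at 0.30. Among the other members the nearest were *Rab3a* at 0.36 and *Rab27a* at 0.37.

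The wider machinery was described by 72 other genes of the same roles, of which 69 could be compared. *Syt5* had no named probe, and *Sytl2* and *Unc13c* were not bright enough. None of the 69 passed the adjusted threshold in limma. By their mean, 30 were higher and 39 lower in β-CB1R-/-, with a median log2 difference of −0.056 beside −0.039 over all genes. An unadjusted p under 0.05 was found for 5 of them, or 7.25%, and 5 were without overlap between genotypes, again 7.25%, beside 3.9% and 4.83% of all genes. One of them, *Rph3a*, was bright enough in β-CB1R-/- mice only, so these counts are a description. The 15 calcium sensors compared had 9 higher and 6 lower, the 19 Rabs with their regulators and effectors 9 and 10, the 11 SNARE chaperones or clamps 4 and 7, and the 8 active zone scaffolds 3 and 5. The 6 plasma membrane SNAREs had 2 higher and 4 lower, the 5 vesicle SNAREs 2 and 3, and the 5 priming factors 1 and 4.

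**Figure D4:**
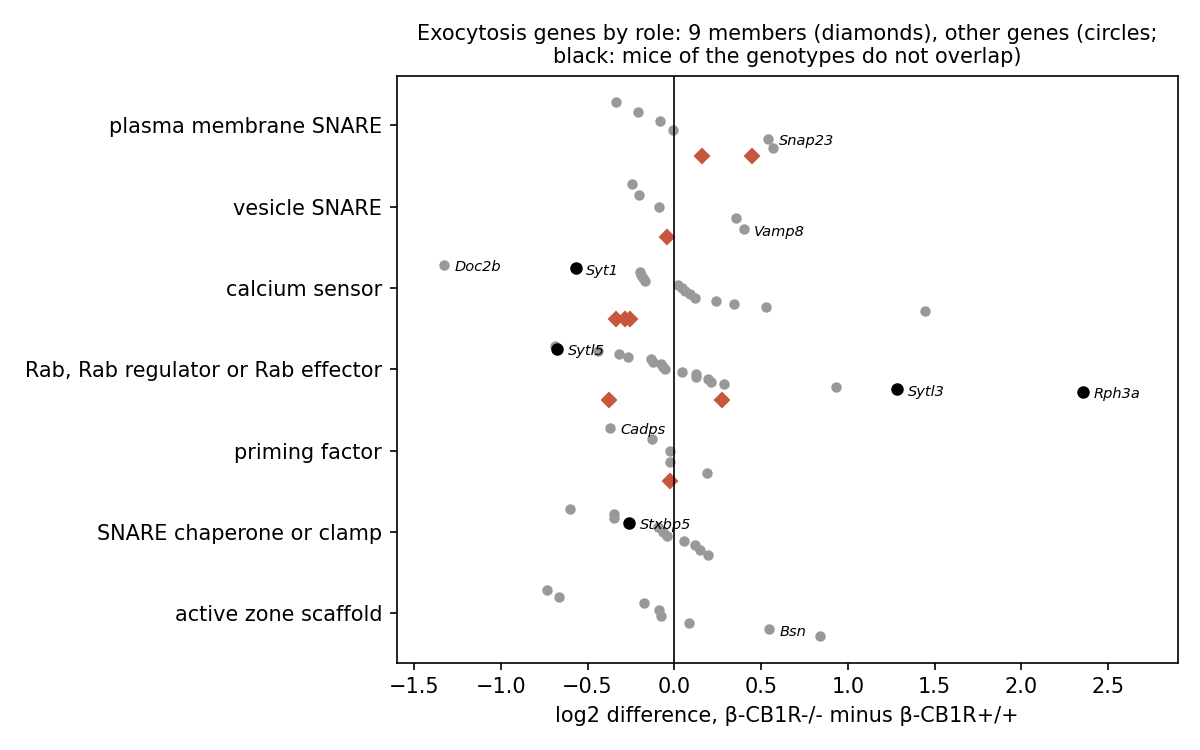
Log2 difference, β-CB1R-/- minus β-CB1R+/+, of 69 other exocytosis genes by role (circles) and of the 9 genes followed here (diamonds, just below the circles of their role). Black circles are the 5 genes whose mice do not overlap between genotypes, with Rph3a at 2.36, a fitted value for a probe that no β-CB1R+/+ array placed above background, and Sytl3 at 1.28.

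Among the Rabs with their regulators and effectors, *Rph3a* was the gene named by the rule. It encodes rabphilin, an effector of RAB3A and RAB27A. It was not well above background on any β-CB1R+/+ array and was so on all 4 β-CB1R-/- arrays, with levels of −3.32, −1.62 and −2.14 in the knockouts. Measured against the detection limit of the control arrays it was at least 2.33-fold higher in β-CB1R-/- (adjusted p = 0.189 by limma). This bound holds for the background subtraction of the scanner software, since after a normexp correction the fitted log2 difference of 2.36 became 0.71. *Rph3a* entered the comparison only through the β-CB1R-/- arrays, where it is the higher, so its p and its lack of overlap are a description.

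*Sytl3* and *Sytl5*, named after their values were seen, encode synaptotagmin-like effectors that bind RAB27A. *Sytl3* had levels of −0.78, −0.13, −0.51 and −0.99 in β-CB1R+/+ and 0.02, 1.18 and 0.84 in β-CB1R-/-, every knockout above every control on this brightest probe. Its log2 difference was 1.28 (standard error 0.33, adjusted p = 0.890 by limma), and its other probes gave 1.21 and 0.69, with overlap between the genotypes on the last. *Sytl5* moved the other way, with levels of −0.61, −0.13, −0.28 and −0.74 in β-CB1R+/+ and −1.52, −1.09 and −0.75 in β-CB1R-/-, a difference of −0.67 (adjusted p = 0.999 by limma), where the third knockout was only just below the lowest control. After a normexp correction it was −0.19.

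Among the calcium sensors, *Syt1*, the fast sensor of synaptic release, had levels of 0.05, 0.05, 0.19 and 0.18 in β-CB1R+/+ and −0.29, −0.84 and −0.22 in β-CB1R-/-. The genotypes did not overlap, and the log2 difference was −0.57 (standard error 0.21, adjusted p = 0.999 by limma) and −0.37 without β-CB1R-/- replicate 2. *Doc2b*, a calcium-binding protein of granule priming and fusion named after its values were seen, had a difference of −1.33 on a probe that was well above background on 3 of 4 β-CB1R+/+ and 2 of 4 β-CB1R-/- arrays, and its mice overlapped. Its difference was −0.56 after a normexp correction and −0.79 without β-CB1R-/- replicate 1.

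In the remaining roles the gene with the most extreme moderated statistic was named. *Stxbp5* encodes tomosyn, which blocks SNARE assembly, and had levels of −2.40, −2.35, −2.34 and −2.37 in β-CB1R+/+ and −2.62, −2.71 and −2.54 in β-CB1R-/-. Its log2 difference of −0.26 (standard error 0.17, adjusted p = 0.999 by limma) was small, with no overlap, and exceeded its SD within genotypes of 0.056. The difference was −0.31 with only the first repeat array of β-CB1R-/- replicate 2 and −0.21 with only the second. So the repeat arrays of one mouse moved it by more than that SD. *Bsn*, the scaffold bassoon, differed by 0.55, *Cadps*, the priming factor CAPS1, by −0.37, and *Vamp8*, a SNARE of secretory vesicles, by 0.40, each with an adjusted p of 0.999 by limma. *Snap23*, the ubiquitous relative of *Snap25*, differed by 0.54 on its brightest probe and by −0.33 on the other, so its probes opposed each other. Without β-CB1R-/- replicate 2 *Snap23* stood at 0.33 (1.1 after a normexp correction) and *Vamp8* at 0.26, and *Cadps* was −0.10 without that mouse, −0.24 without β-CB1R+/+ replicate 2 and −0.74 without β-CB1R-/- replicate 3. The mice with the lowest acinar medians were β-CB1R+/+ replicate 2 and β-CB1R-/- replicate 3. Within their genotype they had the lowest *Vamp8* and *Snap23* (brightest probe) and the highest *Bsn* and *Cadps*. *Stxbp5* did not keep to this order. The part of acinar RNA in these differences was not tested.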

How the data were processed

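Islet RNA of 4 β-CB1R+/+ and 3 β-CB1R-/- mice was hybridised to 8 arrays. The authors deposited spot intensities from Feature Extraction 11.5.1.1, with the background subtracted by that software and no scaling between arrays. The authors also deposited a score per spot, the Z score of each array, used only as an alternative after it was put on the log2 scale. The 9 genes and all gene lists were chosen with earlier results of these data known.

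Log2 intensities of the 59305 non-control spots were set against the 75th percentile of their own array. Spots that the software marked as non-uniform or outlying were dropped, and means were taken over repeated spots of a probe and over the repeat arrays of one mouse. A probe entered the comparison if 3 or more of the 7 mice placed it well above background (39160 of 55681). Differences were estimated with limma 3.58.1 (lmFit, eBayes; R 4.3.3) with Benjamini-Hochberg adjustment over all probes compared and a threshold of 0.05. For single probes an exact two-sided permutation test used all 35 splits of the mice. The labels do not say more of the samples than their number within a genotype, so p-values measure the spread between these samples. The number of arrays limits the precision. Accessions were matched to symbols through the RefSeq annotation of GRCm38.p6 (28026 probes), for names only, since the array header names another build; promoter sequences are those of RefSeq on GRCm38.p6. The fit was tested on simulated data, and figures were drawn with matplotlib.

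All members were named. Of the other exocytosis genes, those past the adjusted threshold and, in each role, the gene with the most extreme moderated statistic on its brightest probe were named, with *Cnr1*, the marker lists and the 3 genes most like the member with the largest SD, of which 1 is not reported here. Alternatives were a normexp background correction on median intensities (offset 50), quantile normalisation, the authors' Z scores, all probes without a filter, a filter that asks for signal on all 8 arrays, each repeat array by itself, the replicate number as a block, a variance that follows the intensity, the methods' *t* test, marked spots kept (added after seeing the data), and each mouse left out. A block for slide was not run, since there was 1 slide.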

Additional observations from a re-analysis of the deposited data

How the results depend on the processing

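None of the 9 genes passed the adjusted threshold in any of the 18 alternatives, and 6 of the 9 kept their direction in all 18. An unadjusted p under 0.05 in limma appeared for *Syt4*, *Syt13* and *Snap25* without β-CB1R-/- replicate 3, and for none of the 9 genes in the other 17. *Vamp2* turned to 0.36 with normexp and ranged from −0.31 to 0.32 with each mouse left out. *Unc13a* turned to 0.0100 with the deposited Z scores and to 0.0054 with the first repeat array only, and ranged from −0.39 to 0.26 with each mouse left out. *Stx1a* ranged from −0.10 to 0.35 with each mouse left out. The median of the 9 genes ranged from −0.21 to 0.026 and that of the other exocytosis genes from −0.072 to 0.012 with each mouse left out, both across 0. The cause was not tested.

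Of the other exocytosis genes, 0 to 1 passed with a mouse left out (*Rph3a*, without β-CB1R-/- replicate 1, a probe bright enough in knockouts only). Over all probes the 43 calls became 23 without a filter, 24 with a filter on all arrays, 0 by the methods' *t* test after adjustment (1412 before it) and 0 to 42 with a mouse left out, with 0 without β-CB1R-/- replicate 2.

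The replicate number was also tried as a block over replicates 1 to 3 of both genotypes, which gave 0 calls. Deviations of mice with the same number correlated at 0.42, −0.27 and −0.062. So few correlations, of differing sign, cannot settle whether the numbers pair the mice. The block made no call on the 9 genes.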
